A study of Caenorhabditis elegans with 3 samples.

Results

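The genes described are 9 members of the insulin and dauer pathways of the nematode Caenorhabditis elegans, chosen by name out of 19973 protein-coding genes. Regions bound by the chromatin protein EGL-27 were collected where their summit lay in the gene or within 5 kb of it. The genes were picked with earlier results on the position and signal of regions near several of them known, so their counts and levels are a description, given with no test. The data were ChIP-seq region lists from 3 biological replicates of L1 larvae, the larval stage that follows hatching. All replicates were whole animals of pooled sexes from strain OP177, genotype unc-119(ed3) III; wgIs177, a stably transgenic line that makes EGL-27 with GFP and FLAG tags at its C-terminus. The labels list the antibody as egl-27. The labels name neither a second condition nor an untagged strain, give the age as unknown, and do not say how many animals or cells a replicate held. Chromatin comes from every tissue at once, so a low signal in all cells and a high signal in few cells cannot be told apart.

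Insulin-like peptides act in the worm through the receptor DAF-2, which signals through the PI3-kinase AGE-1 and the kinases PDK-1, AKT-1 and AKT-2. The phosphatase DAF-18 opposes AGE-1, and Akt signalling keeps the FOXO transcription factor DAF-16 out of the nucleus. Low signalling lets DAF-16 act and favours dauer, a stress-resistant larva that does not feed. A steroid branch meets this pathway at DAF-12, a nuclear hormone receptor for dafachronic acids. Without its ligand, DAF-12 promotes dauer together with its corepressor DIN-1. EGL-27 itself carries a GATA-like zinc finger and resembles the MTA subunits of NuRD chromatin complexes.

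The authors' list was thresholded by the irreproducible discovery rate (IDR), which compares the ranks of regions between replicates. It held 524 regions with signal values from 28.9 to 166.1. Of these, 482 had their summit covered in the lists of all 3 replicates and 42 in 2. The rank of a region in the list could still differ widely between replicates. The signal is the authors' own value for each region, on a scale the sources do not state. Relaxed lists, which by design include background, held 30000 regions for replicate 1, 30000 for replicate 2, 13516 for replicate 3 and 30000 for the replicates pooled. The highest signals in the replicate lists were 41.4, 69.9 and 66.8. Ranks, with rank 1 as the highest region of a list, were therefore used to set replicates side by side.

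EGL-27 regions of the IDR list lay at the 3 members that encode transcriptional regulators, and at 0 of the 6 that encode the receptor, the kinases and the phosphatase. The corepressor gene din-1 had 4 such summits, the FOXO gene daf-16 had 3, and the nuclear receptor gene daf-12 had 1, or 8 in all. In the same windows, 6.08% of all protein-coding genes had an IDR summit. Among the 998 genes with a body of at least 10 kb the share was 9.92%. That class holds din-1, daf-16 and daf-12 and also daf-2, the longest member at 46.3 kb. The other members were only 3.94 to 7.73 kb long. With shares this low, 0 of 6 does not set those 6 genes apart from protein-coding genes in general. Only the 524 highest pooled regions make up the IDR list, and members fell close to that limit on either side. Just inside was a region of daf-16 with a signal of 29.0 at rank 516, and just outside a region of din-1 with a signal of 28 at rank 567. Fewer of the 8 summits were left when the list was narrowed to IDR summits among the 524 highest regions of both other replicates: 4 without replicate 1, 3 without replicate 2 and 3 without replicate 3. Of all 524 IDR summits, 41.2%, 38.2% and 35.7% were left in the same sets, so the members' counts were close to those of the list. In all these narrowed sets, the 2 highest summits of din-1 and the summit of daf-12 were kept.

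**Figure D1:**
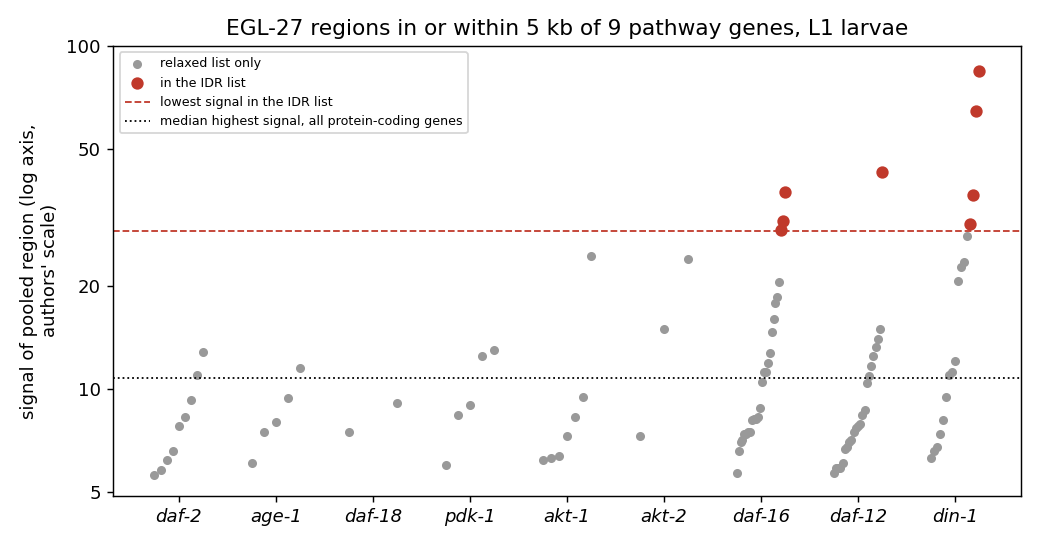
Each point is a region of the pooled list with its summit in the gene or within 5 kb of it, plotted by the authors' signal on a log axis, for 9 genes; points within a gene are ordered by signal. Red points belong to the IDR list, the dashed line marks its lowest signal, 28.9, and the dotted line marks 10.7, the median over all protein-coding genes of the highest signal in the window. Red points appear at daf-16, daf-12 and din-1, while the highest point of every other gene lies below the dashed line.

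The genes upstream of DAF-16 in the pathway had weaker regions. At daf-2, which encodes the insulin/IGF-like receptor, the highest of 9 pooled regions had a signal of 12.8 (rank 4037). It lay in an intron, 2790 bp upstream of the start of transcript Y55D5A.5d.1. This was above the highest signal at 65.3% of protein-coding genes. The window of daf-2 spanned 56.3 kb, and the median protein-coding gene is 2.03 kb long. Such shares, here and below, were not matched for length, and a longer window can hold a higher maximum. None of the 7 annotated starts of daf-2 had a pooled summit between 1000 bp upstream and 200 bp downstream, the window used here for a region at a start.

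The PI3-kinase gene age-1 had an intronic maximum of 11.5, at 3114 bp past its start, and the phosphatase gene daf-18 one of 9.1, at 3130 bp past its start. The latter was the lowest maximum of the 9 genes, above only 33.0% of protein-coding genes. Both summits were nearer to the start of another gene, Y62F5A.10 at 2340 bp for age-1 and eri-1 at 2089 bp for daf-18. No replicate had a region that held the age-1 summit, and only replicate 2 had one that held the daf-18 summit (8.4, rank 3259). At pdk-1, whose kinase activates Akt, the highest region was also intronic (signal 13.0, 1751 bp downstream of the start). It was held by a region of replicate 2 (10.5, rank 1365) and of replicate 3 (4.3, rank 3867), and by none of replicate 1.

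The Akt kinase genes had the highest signals among these 6 genes, both upstream of the gene and below the IDR limit. At akt-1 a region with a pooled signal of 24.4 (rank 787) lay between genes, 2292 bp upstream of the start. Its signal was 8.3 in replicate 1 and 10 in replicate 2, and no region of replicate 3 held the summit. Replicate 3 did have a weak region close by (2.5, rank 10119), which held a lower pooled summit 2081 bp upstream of the start. At akt-2 a region with a pooled signal of 23.9 (rank 828) lay 738 bp upstream of the start shared by both transcripts. It had a signal of 7.9 in replicate 1 and 9.9 in replicate 3, and no region of replicate 2 held it. Each Akt summit was thus held by regions of 2 of 3 replicates, a different pair for each gene. These maxima were above those of 91.2% and 90.9% of protein-coding genes.

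The akt-2 region is shown because it is the only pooled region at an annotated start among the 6 receptor, kinase and phosphatase genes. The sequence covers 100 bp on either side of the summit (chrX:14146862-14147062, ce11, plus strand, the strand of the gene). Capitals mark GAGAGA or its reverse complement, and the nearest copy is centred 4 bp from the summit.
akt-2, rank 828: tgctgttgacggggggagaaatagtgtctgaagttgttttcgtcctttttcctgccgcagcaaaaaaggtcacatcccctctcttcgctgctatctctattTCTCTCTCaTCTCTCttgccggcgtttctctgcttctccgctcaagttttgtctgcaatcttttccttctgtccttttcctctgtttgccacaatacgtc

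At daf-16, which encodes the FOXO factor on which insulin signalling converges, 3 IDR summits lay over 19797 bp of a gene with 7 distinct annotated starts (WBGene00000912, chromosome I from 10750498 to 10776703, plus strand). The highest, with a pooled signal of 37.5 (rank 276), lay at the group of starts at the 5' end: 444 bp upstream of transcript R13H8.1h.1, 578 bp upstream of R13H8.1f.1 and R13H8.1i.1, and 906 bp upstream of R13H8.1d.1 and R13H8.1k.1. Its signal was 6.0 in replicate 1 (rank 3392), 17.6 in replicate 2 (rank 228) and 13.0 in replicate 3 (rank 365). Replicate 1 was thus the low one here.

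The other IDR summits of daf-16 lay in introns and outside the start windows. A summit with a pooled signal of 30.9 (rank 448) was 852 bp downstream of R13H8.1d.1. Replicate 1 was the high one at this summit, with a signal of 14.8 at rank 159, against 4.9 at rank 16921 in replicate 2 and 6.8 at rank 1503 in replicate 3. The last summit, with a pooled signal of 29.0, lay 19353 bp into the gene and 1657 bp upstream of the start of R13H8.1a.1. It had a signal of 12.8 in replicate 2 (rank 647) and 15.8 in replicate 3 (rank 226), and no region of replicate 1 held it. The start of R13H8.1a.1 itself had only a pooled region of 8.2 (32 bp downstream), and the start shared by R13H8.1b.1 and R13H8.1c.1 one of 11.9 (48 bp downstream). With the window of 1000 bp upstream to 200 bp downstream, IDR summits at annotated starts of daf-16 lay at the 5' group alone, whereas a window of 2000 bp upstream to 500 bp downstream also counts the last summit, at the start of R13H8.1a.1.

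**Figure D2:**
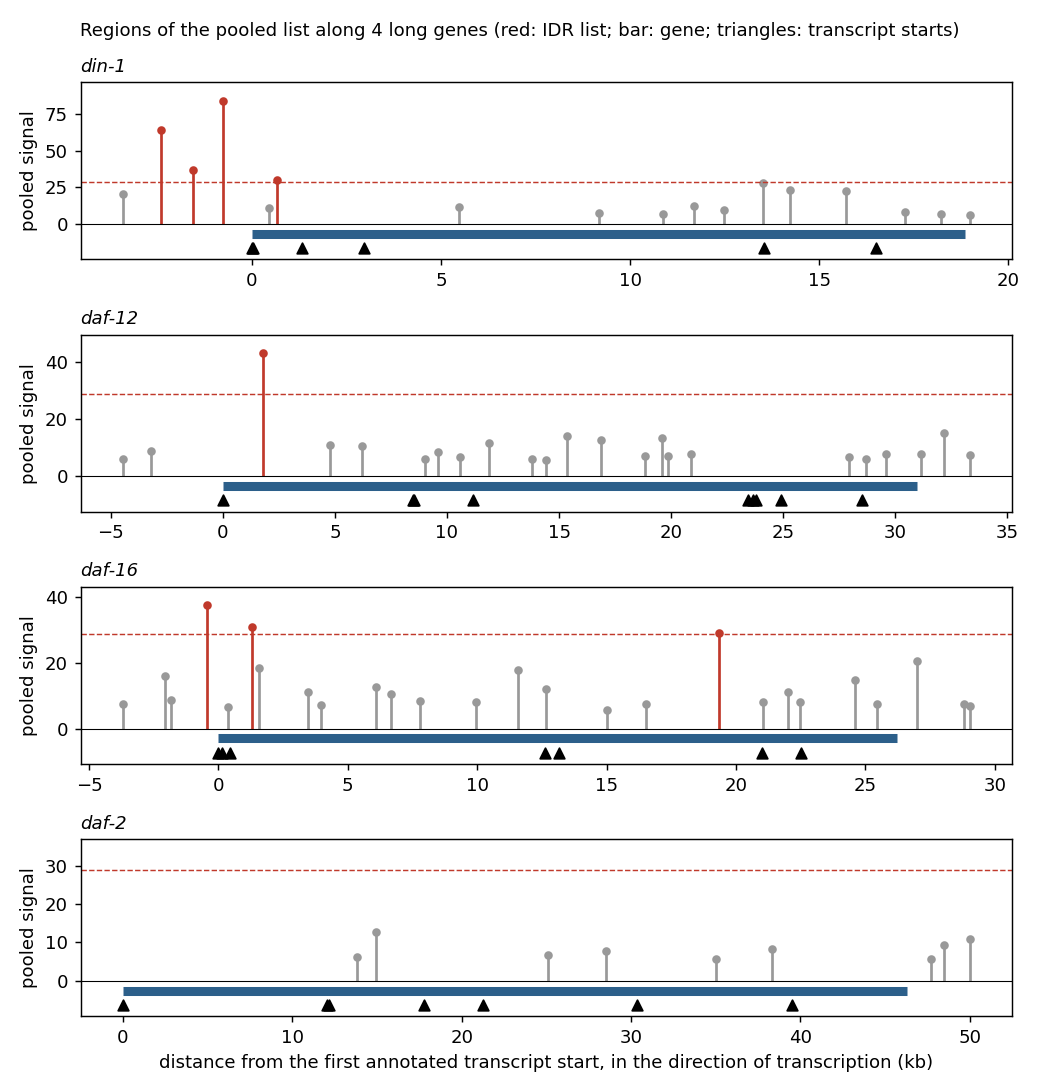
Pooled-list regions along din-1, daf-12, daf-16 and daf-2, plotted by summit distance in kb from the first annotated transcript start (x axis, transcription to the right) and by the authors' signal (y axis, scaled for each gene). Red stems are in the IDR list, the dashed line is its lowest signal (28.9), blue bars are gene bodies and triangles are annotated transcript starts. The red stems of din-1 stand within 3 kb of the 5' end, daf-12 has 1 red stem 1802 bp into the gene, the red stems of daf-16 are at the 5' end and at 19353 bp, and daf-2 has none.

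At daf-12, the nuclear hormone receptor gene (WBGene00000908, chromosome X from 10635908 to 10666875, plus strand), the single IDR summit was intronic and 1802 bp past the F11A1.3e.3 start, the most upstream of 9 distinct starts. Its pooled signal was 43.0 (rank 188). The signal was 15.7 in replicate 1, 17.3 in replicate 2 and 13.5 in replicate 3, with ranks of 119, 239 and 323. All replicates placed it among their 524 highest regions. The next pooled region of the gene reached only 15 (rank 2611), past the 3' end. Pooled summits lay at the starts of F11A1.3e.4 and F11A1.3c.1 alone, with signals of at most 6.8. No other protein-coding gene starts near the IDR summit, the closest being M79.2 at 8903 bp.

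The daf-12 window is shown because its region was high in every replicate although it holds no GAGAGA (chrX:10637610-10637810, ce11, plus strand, the strand of the gene). It contains runs of G and A without that word, the longest unbroken run of G and A, or of C and T, being 18 bp.
daf-12, rank 188: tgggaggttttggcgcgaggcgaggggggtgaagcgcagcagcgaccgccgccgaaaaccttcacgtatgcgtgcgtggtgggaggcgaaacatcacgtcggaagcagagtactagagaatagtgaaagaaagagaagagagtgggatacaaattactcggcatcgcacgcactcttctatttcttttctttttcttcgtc

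At din-1, which encodes the DAF-12 corepressor (WBGene00008549, chromosome II from 11614770 to 11633609, minus strand), 4 IDR summits lay within 3061 bp at the 5' end. The highest had a pooled signal of 84.3, rank 22 of the list, and lay 755 bp upstream of F07A11.6a.1 and 778 bp upstream of F07A11.6b.1 and F07A11.6c.1. Its signal was 22.7 in replicate 1, 25 in replicate 2 and 31.8 in replicate 3, with ranks of 32, 77 and 20. Further upstream, 2393 bp from F07A11.6a.1, a summit of 64.5 (rank 53) had replicate signals of 16.6, 26.2 and 25.4 at ranks 99, 64 and 54. Both regions were thus among the 100 highest of every replicate.

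The remaining IDR summits of din-1 varied more between replicates. The summit between those above, 1555 bp upstream of F07A11.6a.1 with a pooled signal of 36.8, ranked 1679 in replicate 1, 167 in replicate 2 and 783 in replicate 3. The summit in the gene (pooled signal 30.3) was intronic, 645 bp past the F07A11.6b.1 start and 668 bp upstream of that of F07A11.6e.1. It had a signal of 8.4 in replicate 1 (rank 990) and 11 in replicate 3 (rank 529), and no region of replicate 2 held it. Replicate 2 did have a region close by, with a signal of 11.2 (rank 1055). That region held a weaker pooled summit outside the IDR list, 443 bp past the F07A11.6b.1 start. The replicate 1 region of rank 990 held this weaker summit too, and no region of replicate 3 did. The nearest start of another protein-coding gene, ghi-1, was 10745 to 13806 bp from the 4 IDR summits.

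A weaker region of din-1, outside the IDR list, lay at the start of a short transcript. F07A11.6d.1 starts 13531 bp into the gene and encodes 567 codons, against 2014 to 2407 for the transcripts that start within 2972 bp of the 5' end. As background, DIN-1 is known in long and short forms, and the short form acts with DAF-12. The region at that start had a pooled signal of 28 (rank 567) with its summit 23 bp upstream. Its signal was 3.2 in replicate 1 (rank 17465), 12.4 in replicate 2 (rank 724) and 17.3 in replicate 3 (rank 187), so that replicate 1 was far below the others. The summit of rank 567 also lay inside the noncoding genes F07A11.10 and F07A11.15 on the opposite strand. Which gene this region serves was not tested. Pooled regions of 23.4 and 22.7 followed downstream in the gene. The latter lay 781 bp upstream of the start of F07A11.6g.1, a still shorter transcript of 186 codons.

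Sequences of the 2 highest din-1 regions and of the bases before the start of F07A11.6d.1 are shown on the minus strand, the strand of the gene, because they are the highest regions of the 9 genes and the start of the short transcript. The windows are chrII:11634264-11634464 and chrII:11635902-11636102 for ranks 22 and 53, and chrII:11620079-11620201 for rank 567, which is cut at the transcript start (ce11). Capitals again mark GAGAGA or its reverse complement: the region of rank 22 has 1 copy, 66 bp from the summit, while that of rank 53 has 15 overlapping copies.
din-1, rank 22: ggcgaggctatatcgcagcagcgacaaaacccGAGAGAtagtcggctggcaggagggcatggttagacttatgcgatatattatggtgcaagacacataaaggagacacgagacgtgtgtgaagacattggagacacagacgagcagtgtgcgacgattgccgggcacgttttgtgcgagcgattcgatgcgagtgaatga
din-1, rank 53: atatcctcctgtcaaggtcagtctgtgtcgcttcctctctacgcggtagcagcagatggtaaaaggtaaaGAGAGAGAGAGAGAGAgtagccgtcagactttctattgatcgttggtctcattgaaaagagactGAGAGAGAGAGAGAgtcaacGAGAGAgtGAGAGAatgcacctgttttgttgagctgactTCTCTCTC
din-1, rank 567: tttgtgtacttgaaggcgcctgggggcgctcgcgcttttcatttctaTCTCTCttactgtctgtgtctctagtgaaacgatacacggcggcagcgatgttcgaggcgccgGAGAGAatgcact

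At annotated starts, then, 2 of the 9 genes had an IDR summit, din-1 with 2 and daf-16 with 1. Over all protein-coding genes, 1.74% had one. This share was not matched for the number of starts, and daf-16 has 7 distinct annotated starts and din-1 has 6. Many worm transcripts are trans-spliced to a leader, so an annotated start can lie downstream of the place where transcription begins. The count of 3 summits depended on the window, being 1 from 500 bp upstream to 100 bp downstream, and 5 from 2000 bp upstream to 500 bp downstream.

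Across replicates, 6 of the 8 IDR summits were held by a region of each relaxed list, against 482 of all 524 IDR summits. The exceptions were the intronic summit of din-1 (not covered in replicate 2, which had a region close by) and the summit of daf-16 at 19353 bp (not covered in replicate 1). Median ranks of the listed summits were 159 in replicate 1, 228 in replicate 2 and 344 in replicate 3. Among the 524 highest regions of a replicate were 4, 5 and 5 of the 8. Outside the IDR list, 6 of 89 pooled regions at the members were held in every replicate, or 6.74%, beside 4.56% of all 29476 such regions. Of the 17 pooled regions of din-1, IDR regions included, 7 were held in every replicate, beside 6.08% of all pooled regions. At daf-16 it was 3 of 26, at akt-1 1 of 7 and at daf-12 1 of 23, and daf-2, age-1, daf-18, pdk-1 and akt-2 had 0 of 9, 5, 2, 5 and 3.

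**Figure D3:**
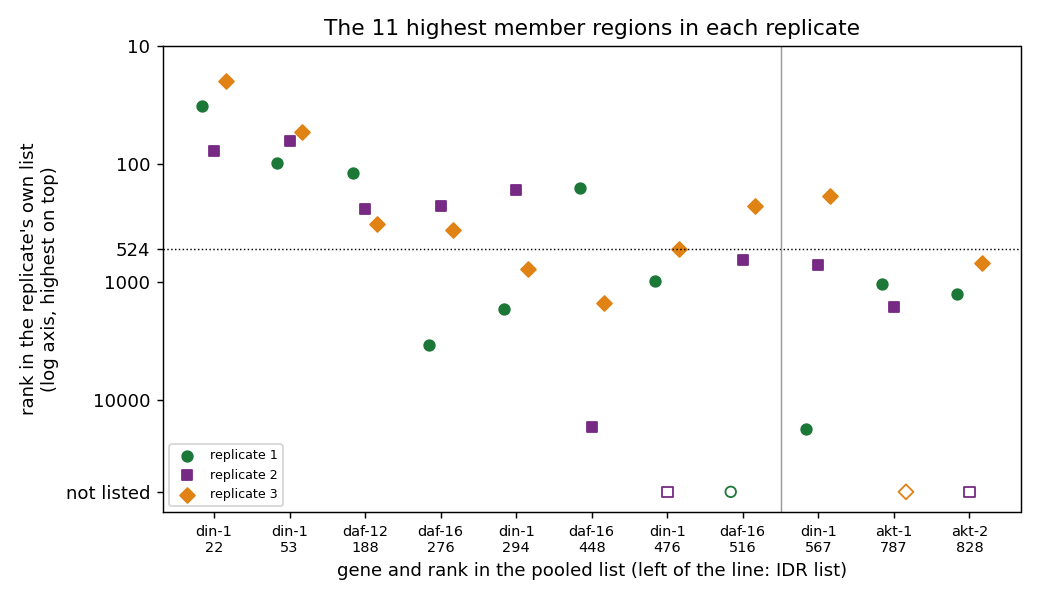
Rank of the 11 highest member regions in each replicate's own relaxed list (log axis, highest on top), for replicate 1 (circles), 2 (squares) and 3 (diamonds); open symbols mean that no region of that replicate held the summit. Labels give the gene and the pooled rank, the vertical line separates the 8 IDR regions from the next 3, and the dotted line is rank 524. The symbols of din-1 at ranks 22 and 53 and of daf-12 at rank 188 all lie above the dotted line, and those of daf-16 at rank 448 spread from 159 to 16921.

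Relaxed regions were also more closely spaced at the regulator genes than on average in the genome. At daf-16 there were 4.70, 6.63 and 5.25 regions per 10 kb in replicates 1, 2 and 3, against genome means of 2.99, 2.99 and 1.35. At din-1 the densities were 5.20, 6.59 and 3.81, and at daf-12 they were 4.88, 4.88 and 1.95. All these values lay above the genome mean of their list, and the replicates overlapped between the 3 genes. At daf-2, with 1.95, 2.13 and 1.78, only the density of replicate 3 was above the genome mean. Densities above the mean were not confined to the regulator genes. The kinase gene akt-1 was above it in replicates 1 and 3 and in the pooled list (5.02 against 2.99), and below it in replicate 2. In replicate 3, akt-1 was denser than din-1 and daf-12. The akt-2 gene was above the mean in replicates 1 and 3, and below it in replicate 2 and the pooled list.

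Most long genes were less dense than the regulator genes. Among 998 genes of at least 10 kb, a class chosen after the values were seen, the median in the pooled list was 2.77 per 10 kb. Of these, 0.902% were as dense as daf-16 (7.18), 4.21% as dense as din-1 (5.90) and 6.01% as dense as daf-12 (5.61), whereas 82.8% were as dense as daf-2 (1.60). The shares varied between replicates 1, 2 and 3: 10.9%, 1.00% and 1.20% for daf-16, 6.41%, 1.10% and 4.51% for din-1, 9.42%, 9.02% and 24.1% for daf-12, and 74.95%, 71.0% and 28.5% for daf-2. The shorter members did not share an order over replicates, akt-1 being at 4.30, 2.15 and 4.30 and akt-2 at 4.87, 1.39 and 2.09. These relaxed regions include background, and their spacing was not used to call binding.

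**Figure D4:**
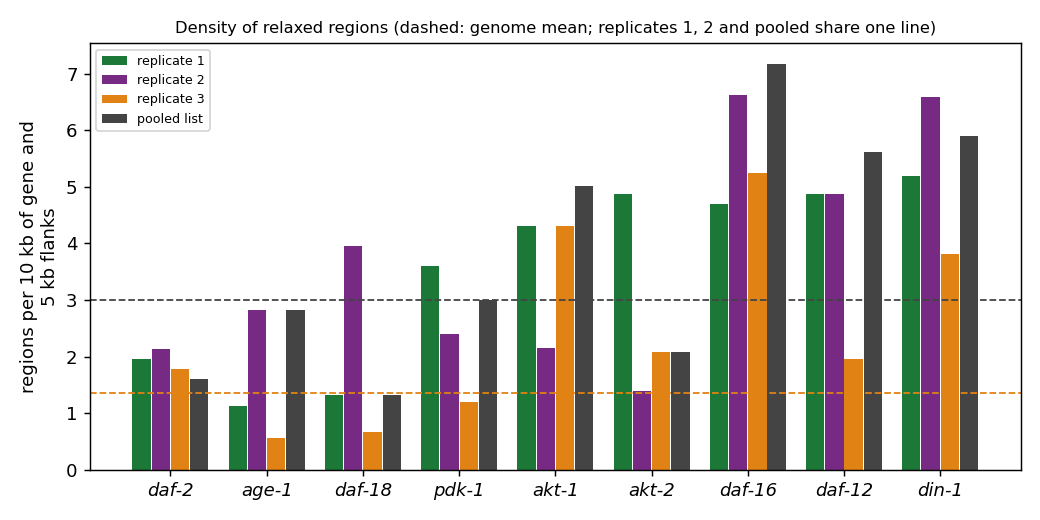
Bars give the number of relaxed regions per 10 kb of each gene with its 5 kb flanks, in the lists of replicates 1, 2 and 3 and in the pooled list. Dashed lines are genome means, 2.99 for replicates 1 and 2 and the pooled list, and 1.35 for replicate 3. Every bar of daf-16, daf-12 and din-1 stands above its line, from 1.95 to 7.18, while the bars of daf-2 range from 1.60 to 2.13.

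The word GAGAGA was found at most but not all IDR regions of these genes, as in the list as a whole. How often it occurs outside IDR regions was not measured. Motifs were searched on both strands within 100 bp of the summit. GAGAGA was found at 5 of the 8 member summits, beside 56.5% of all 524 IDR summits. Copies were very unequal, with 19 overlapping copies at the daf-16 summit at 19353 bp, 15 at the din-1 summit of rank 53, and 1 at each of the other 3. It was absent at the highest daf-16 summit, at daf-12 and at the intronic summit of din-1. Within 50 bp the count was 2 of 8. The 56.5% over all IDR summits is for 100 bp, so it is no background for this narrower count.

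The windows ranged in GC content from 41.3% at the daf-16 summit of rank 448 to 62.2% at the din-1 summit of rank 294, with a median of 48.8% beside 47.3% over all IDR summits. The longest unbroken run of G and A, or of C and T, also varied between the windows. It was 49 bp at the daf-16 summit at 19353 bp, 8 bp at the din-1 summit of rank 22, and 12 to 24 bp at the others. The median over all IDR summits was 12 bp.

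Binding words of the pathway's own factors were searched in the same windows. The DAF-16 element GTAAACA occurred at 1 member summit, the highest of daf-16 itself, beside 2.86% of all IDR summits. DAF-12 half-sites, AGTTCA or AGTGCA, occurred at 2 summits, both of daf-16, beside 17.4%. The GATA core, searched as AGATAA or AGATAG in one form and as TGATAA or TGATAG in the other, occurred at 2, at daf-16 and din-1, beside 32.4%, and the E-box CACGTG at 1, at daf-16, beside 11.3%. Among the 6 highest member regions outside the IDR list, GTAAACA occurred at akt-1 (rank 787) and din-1 (rank 933), and a DAF-12 half-site at din-1 alone (ranks 567, 867 and 933). The shares above are over IDR summits, so they are no background for these 6 regions. A word of this kind in the window is a description of the sequence and not a site of binding.

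Other genes of these pathways were taken from lists made with earlier results known. Of 104 such genes matched in the annotation, 11 (10.6%) had an IDR summit in the gene or within 5 kb, beside 6.08% of protein-coding genes. By list, these were 4 of 39 insulin-like ligand genes, 3 of 23 further insulin signalling genes, 2 of 16 dauer genes of the TGF-beta and cGMP branches, 2 of 16 DAF-16 target genes and 0 of 10 dauer hormone genes. For 5 of the 11 genes the nearest start of a protein-coding gene was their own, namely ins-13, daf-5, daf-14, pptr-1 and aak-2.

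Among the ligand genes, the highest signal was 77.4, at rank 33 of the list, 1305 bp downstream of the start of ins-13 and between genes. Its signal was 34.5 in replicate 1, 35.7 in replicate 2 and 18.8 in replicate 3. The summits counted for ins-17, ins-7 and ins-8 were nearer to other starts, that of ins-17 lying 248 bp upstream of the ribosomal protein gene rps-1. A single summit 2030 bp upstream of nhr-34 was counted for both ins-7 and ins-8.

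The TGF-beta branch was represented by daf-5, which encodes a Sno/Ski-type partner of the Smad DAF-3, and by the Smad gene daf-14. In introns of daf-5 lay a summit of 65.7 (rank 49), with replicate signals of 12.8, 24.1 and 32.3, and another of 42.3. At daf-14 the summit (43.7, rank 176) was intronic, with replicate signals of 13.5, 10.2 and 20.6.

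Of the further insulin signalling genes, aak-2, the catalytic subunit gene of AMP-activated kinase, had a summit of 45.4 inside an intron, at 983 bp past the T01C8.1b.1 start. Its signal was 5.4 in replicate 1, 22.6 in replicate 2 and 19.7 in replicate 3, so replicate 1 was low. At pptr-1, a PP2A regulatory subunit gene that opposes AKT-1, the summit (36.4) lay 1378 bp upstream and no region of replicate 2 held it. The smk-1 summit (39.1) was nearer to vps-60. Of the DAF-16 targets, hsp-12.6 and icl-1 had summits in their windows, each nearer to the start of another gene.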

How the data were processed

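EGL-27 ChIP-seq region lists from 3 biological replicates, with replicate numbers from the labels, were analysed as 1 group. The authors deposited relaxed lists and an IDR list on ce11; per the notes deposited with them, each relaxed list derives from the replicate's alignment and 1 further input common to all replicates, taken here to be the control. No label or file header names an aligner or caller. Of the deposited values, the signal and the summit offset were used; lists hold no read counts, so depth and its error are unknown. The ce10 lists were not analysed here.

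Genes and transcript starts came from Ensembl release 115 (WBcel235, the ce11 assembly), and sequence from RefSeq for the same assembly; 0 regions passed a chromosome end. Coordinates are 1-based. A replicate was counted as holding a summit when a region of its list covered it. All 9 members were named, and other pathway genes only where they had an IDR summit, a rule set with the members and lists chosen while earlier results of these data were known. No p-value was computed. Alternatives were other windows, stricter lists, overlap in place of summits, nearest starts, and sets without a replicate. Counting was tested on simulated data. Python 3.11.15, numpy 2.4.6, pandas 2.3.3 and matplotlib 3.10.9 were used.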

Additional observations from a re-analysis of the deposited data

How the results depend on the processing

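The number of members with an IDR summit was 3 in 6 of the 9 alternatives computed for it, and 2 in the 262 highest IDR regions, without replicate 2 and without replicate 3. The 8 IDR summits fell to 4 in gene bodies alone and 3 in the 262 highest, and were 3 to 4 without a replicate. Those at an annotated start, 3 in all, were 1 in the 262 highest, 1 with 500 bp upstream and 100 bp downstream, 5 with 2000 bp and 500 bp, and 1 to 2 without a replicate. Summits listed in every replicate, 6 in all, were 3 in the 262 highest and 3 to 4 without a replicate. Summits with GAGAGA, 5 in all, were 2 in the 262 highest, 2 within 50 bp and 2 without each replicate. Pooled regions at members, 97 in all, were 58 in gene bodies alone. The share of protein-coding genes with an IDR summit was 0.571% in gene bodies, 3.48% with flanks of 2 kb, 10.04% with 10 kb and 3.03% in the 262 highest. Sets without a replicate are subsets of the IDR list, which was not called again, so they can only hold fewer summits. The lists share 1 further input and no untagged sample was analysed, so a signal independent of EGL-27 was not tested.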

Other observations

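Noncoding genes lay near several of the members' summits. Within 500 bp of a noncoding gene were 4 of the 8 IDR summits, beside 32.6% of all 524. The highest daf-16 summit lay inside the overlapping genes H36N01.1 and H36N01.4 of opposite strands, and the summit at 19353 bp was 237 bp from R13H8.5. At din-1, the summit of rank 22 was 30 bp from ZK20.8, and that of rank 294 was 61 bp from the snoRNA gene ZK20.9. The region at the start of F07A11.6d.1, outside the IDR list, lay inside the snoRNA gene F07A11.15 and the noncoding gene F07A11.10, both on the strand opposite to din-1. A snoRNA gene was within 500 bp of 3.82% of all IDR summits. Which gene these regions serve was not tested.

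Beyond the windows used here, the nearest IDR summit to daf-18 was 18.7 kb away with a signal of 35.4, and that to age-1 34.6 kb away with a signal of 32.8. For the other members without an IDR summit, the distances were 74.1 kb at akt-1, 83.6 kb at akt-2, 119.0 kb at pdk-1 and 122.5 kb at daf-2. The genes age-1 and din-1 share chromosome II with the annotated egl-27 gene, at 4.67 and 4.77 Mb from it. The genotype gives no position for the transgene wgIs177.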
